A study of Ascaris suum with 62 samples.

Results

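CENP-A is the histone H3 variant that replaces H3 in centromeric nucleosomes and marks where kinetochores form. *Ascaris suum*, the pig roundworm, has holocentric chromosomes, on which centromeric chromatin is spread along the length in place of a single point. In early cleavage its future somatic cells lose part of the germ-line genome, a process called programmed DNA elimination, while germ cells, such as those of the testis, keep it whole.

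The comparison here sets the CENP-A peaks of testis2 against those of testis3, both labelled as testis with no treatment. What 2 and 3 denote in these names is not given in the labels, nor is whether worms were pooled. Members were all peaks of the 2 lists, 14781 in testis2 and 9197 in testis3, or 23978 of the 163819 peaks in the 12 CENP-A lists of the series. Each list was called once, by chromatin immunoprecipitation and sequencing, and gives the reads of 2 libraries, rep1 and rep2, for every peak. Per the labels, 1 library of each pair was single-end and the other paired-end, and which column is which is not given. Each peak carries the authors' mark, retained or eliminated in somatic cells. The peak lists hold no gene-level values against which the tissue could be checked, and a change in the makeup of the tissue cannot be told apart from a change of CENP-A per cell.

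Reads in peaks were 4921778 and 9470225 in the testis2 libraries and 4646881 and 4935948 in the testis3 libraries. Read density is the number of reads per kb of peak for every 1000000 reads in peaks of that library. The testis3 libraries stood apart from those of every other list: their log2 densities correlated at r = 0.517 over 9197 peaks, against r = 0.893 over 14781 peaks in testis2 and 0.776 to 0.916 in the 11 other lists. Results that rest on reads are therefore given for each testis3 library. Values per list have no replicate, since each list is 1 peak call.

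Testis2 had more called CENP-A peaks and more than 2 times the covered length. Most testis3 peaks overlapped a testis2 peak by at least 1 bp. Each list is 1 peak call, and the part that read depth has in peak number and width was not tested. Testis2 peaks covered 47.0 Mb, against 19.0 Mb in testis3, of the 284 Mb that peaks span in the assembly AgBionano_v1.9. The lists shared 12.2 Mb, which was 26.0% of the testis2 length and 64.2% of the testis3 length. Counted as peaks with at least 1 bp in common, 5104 of the testis2 peaks (34.5%) and 6340 of the testis3 peaks (68.9%) were shared. The order of these shares depends on list length: with testis2 cut to its densest peaks of the testis3 covered length, 54.3% of 4365 testis2 peaks and 36.5% of testis3 peaks were shared. With an overlap of 50% of both peaks required, 11.8% of testis2 and 18.9% of testis3 peaks were. The Jaccard index, shared over joint length, was 0.227, and the covered lengths alone limit it to 0.405. Of the shared testis3 peaks, 3502 (55.2%) lay wholly inside a testis2 peak, while 627 of the shared testis2 peaks (12.3%) lay wholly inside a testis3 peak. A single testis2 peak could hold several testis3 peaks: 1192 held 2 or more, and the highest number was 8. No overlapping pair carried opposite marks (0 of 6826 pairs).

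**Figure D1:**
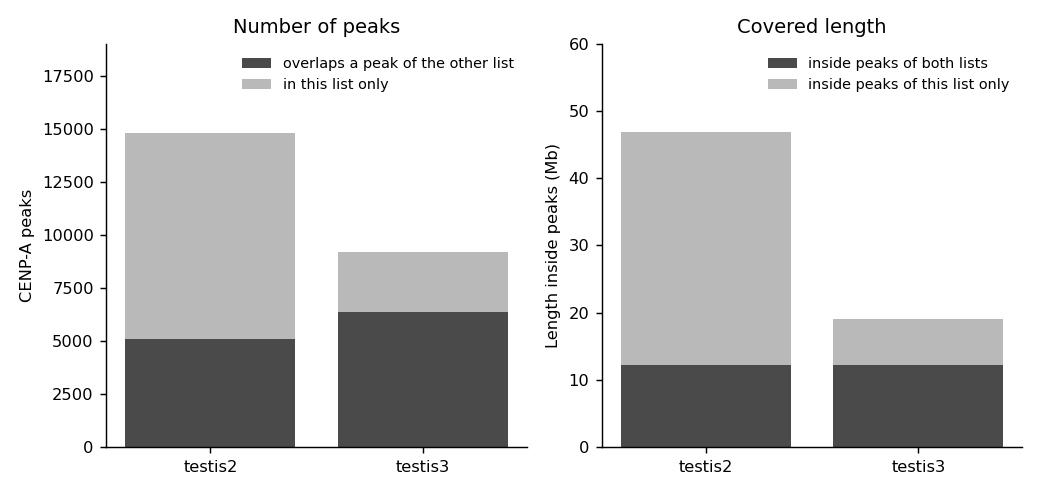
Bars give the number of CENP-A peaks (left) and the length inside peaks in Mb (right) for testis2 and testis3, 1 list each, split into the part shared with the other list and the part in that list only. The shared length is 12.2 Mb in both bars and is the larger part of testis3 and the smaller part of testis2.

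The shared percentage differed more with density in testis2 than in testis3. With the peaks of a list split into 5 equal bins by rep1 density, 18.2% of the lowest bin and 54.4% of the highest bin of testis2 were shared, and by rep2 density 16.6% and 59.5%. In testis3 the lowest and highest bins were 56.2% and 70.4% shared by rep1, with 75.6% in the middle bin, and 65.4% and 67.9% by rep2. Wider peaks, which have more room to overlap, were shared more often in both lists. In testis2 16.1% of the narrowest and 67.1% of the widest bin were shared, and in testis3 52.8% and 87.6%.

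Peaks found in only 1 of the 2 lists were mostly more than 1 kb from the other list's peaks and were often listed elsewhere in the series. The 9677 testis2-only peaks lay a median of 11218 bp from the nearest testis3 peak, where the scaffold had one, and 601 of them (6.21%) lay within 1 kb. The 2857 testis3-only peaks lay a median of 5210 bp from a testis2 peak, and 452 (15.8%) lay within 1 kb. These distances also depend on how many peaks the other list has, and were not set against sites placed at random. Testis1 peaks overlapped 39.3% of testis2-only and 48.8% of testis3-only peaks, against 77.5% and 73.4% of the shared peaks of testis2 and testis3. For the 3 ovary lists the range was 23.6% to 37.4% of testis2-only and 28.5% to 45.8% of testis3-only peaks. For the 6 embryo and larval lists it was 33.2% to 45.6% and 38.2% to 48.9%. In none of the other 10 lists lay 2304 testis2-only peaks (23.8%) and 500 testis3-only peaks (17.5%). Among shared peaks the counts were 264 (5.17%) in testis2 and 447 (7.05%) in testis3. List-only peaks were also narrower than shared ones, which leaves less room to overlap any list. Median widths were 1723 against 3413 bp in testis2 and 1232 against 1708 bp in testis3. Among the 12 lists, testis1 had Jaccard indices of 0.326 with testis2 and 0.265 with testis3, against 0.227 between testis2 and testis3. These are not like for like, since covered length limits the index and was 38.4 Mb in testis1, 47.0 Mb in testis2 and 19.0 Mb in testis3. Of the testis3 length, 63.3% lay in testis1 peaks and 64.2% in testis2 peaks. Peaks present in all 10 others made up 22.5% of shared testis2 peaks and 17.0% of shared testis3 peaks. They made up 5.37% of testis2-only and 6.58% of testis3-only peaks.

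The 4 densest testis2-only peaks were 871 to 1063 bp wide. Among testis2-only peaks of at least 200 bp the first was a 1063 bp peak in eliminated DNA on scaffold 293 (35707 to 36770), with 12620 and 30563 reads, or densities of 2412 and 3036. The nearest testis3 peak was 7872 bp away, and testis1 and 5day had a peak there. The next in order lay on scaffold 173 (240726 to 241597, retained, densities 939 and 941), on scaffold 84 (309168 to 310097, eliminated, 655 and 1724) and on scaffold 158 (131419 to 132381, eliminated, 439 and 689). All 4 were overlapped by a testis1 and a 5day peak.

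In testis3 the densest list-only peaks included a neighbouring pair in eliminated DNA on scaffold 174. The first (119788 to 120804) had densities of 1059 in rep1 and 634 in rep2 and the second (141165 to 141589) 916 and 527, and the nearest testis2 peaks were 32134 and 37231 bp away. A retained peak on scaffold 374 (9468 to 11108) had 521 and 581, and one on scaffold 16 (1383397 to 1385305) had 501 and 806. The peak on scaffold 16 was found in 1 other list, 0hr, and the other 3 in at least testis1 and ovary1.

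Testis2 peaks were also wider, with a median width of 2091 bp against 1517 bp in testis3. The difference was largest among shared peaks, at 3413 bp in testis2 and 1708 bp in testis3, while list-only peaks had medians of 1723 bp in testis2 and 1232 bp in testis3. Sharing itself selects wide peaks, and more so in testis2, so the medians of shared peaks are not like for like. From the narrowest to the widest bin it rose from 16.1% to 67.1% in testis2 and from 52.8% to 87.6% in testis3. Peaks of at least 10 kb numbered 618 in testis2 and 80 in testis3, of which 553 in testis2 and all 80 in testis3 were shared. The widest testis2 peak spanned 46.9 kb on scaffold 88 (210267 to 257158), where 8 testis3 peaks covered 84.0% of it. The next in width, 46.4 kb on scaffold 18 (2589465 to 2635821) and 43.7 kb on scaffold 15 (1946656 to 1990403), held 5 and 7 testis3 peaks, which covered 23.4% and 31.8% of them. Each of these 3 sites had a peak in all 12 lists. The widest testis3 peaks were 26.3 kb on scaffold 145 (95195 to 121523), 24.2 kb on scaffold 50 (377148 to 401346) and 22.9 kb on scaffold 5 (204409 to 227323), and testis2 peaks covered 74.9%, 73.2% and 89.5% of them. On scaffold 145 the testis3 densities were 157 in rep1 and 67.9 in rep2, and none of the lists 46hr, 60hr, 5day, 7day and L1 had a peak.

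**Figure D2:**
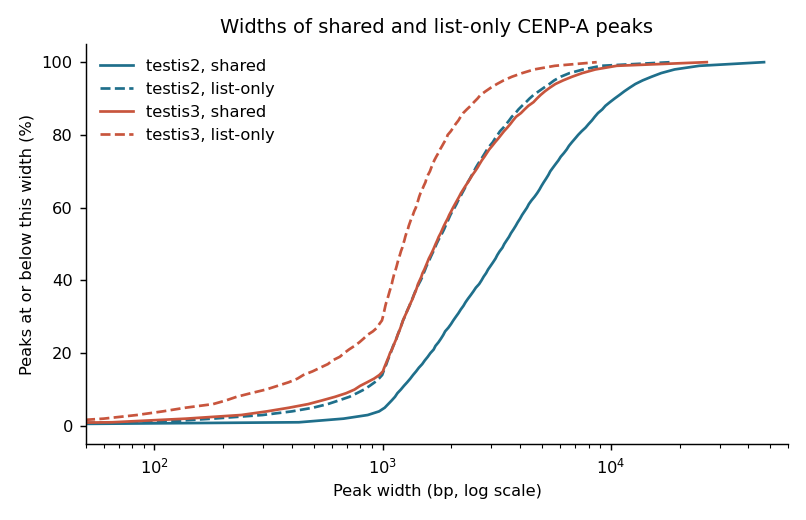
Lines give the percent of peaks (vertical axis) at or below each width in bp (horizontal axis, log scale) for shared and list-only peaks of testis2 and testis3. Shared testis2 peaks are the widest, with a median of 3413 bp, and testis3-only peaks the narrowest, with a median of 1232 bp; shared testis3 and testis2-only peaks lie close together.

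Along the scaffolds, the extra testis2 cover was spread widely. Of 14358 windows of 20 kb, 4430 had peaks of both lists, 3422 of testis2 only, 856 of testis3 only and 5650 of neither. Windows at least 50% inside peaks numbered 1598 in testis2 and 283 in testis3, with 216 in both. The percent of a window inside peaks was at least 40 points higher in testis2 in 1273 windows (8.87%) and at least 40 points higher in testis3 in 36 (0.251%). With testis2 cut to its densest peaks of the testis3 covered length, the counts were 295 higher in testis2 and 134 higher in testis3. With every window of a list multiplied by 1 factor to give both lists the same total, they were 297 and 570, but this carries some windows past 100% cover. No test is possible for cover, with 1 list per group.

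The 6 runs of such windows with the largest excess of covered length in testis2 were in retained DNA. On scaffold 9, from 1900001 to 2060000, peaks filled 76.8% in testis2 and 9.58% in testis3. On scaffold 18, from 920001 to 1060000, they filled 89.1% and 13.3%. Scaffold 81 held a pair of them, with 78.9% in testis2 and 19.8% in testis3 from 20001 to 180000, and 75.1% and 11.8% from 200001 to 340000. Scaffold 15 had 84.1% in testis2 and 20.5% in testis3 from 1900001 to 2040000. On scaffold 64, from 1100001 to 1220000, testis2 had 74.1% and testis3 3.67%. With testis2 cut to the testis3 covered length, these differences were smaller: 25.5 points on scaffold 9, 34.3 on scaffold 18, 35.8 and 40.7 on scaffold 81, 38.03 on scaffold 15 and -0.16 on scaffold 64. Of the 6 runs, 1 then kept a mean difference of at least 40 points. Testis1 cover in these 6 runs was 3.66% to 47.3%.

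The 6 runs with the largest excess in testis3 were 20 to 40 kb long, and 5 of the 6 were retained. The exception lay on scaffold 148 from 60001 to 100000, in eliminated DNA, where testis2 had 0.712% and testis3 47.9%. It held 69 and 93 reads in the testis2 libraries and 9218 and 3721 in the testis3 libraries. On scaffold 133 (80001 to 120000) testis2 had no peak and testis3 had 42.1%. On scaffold 4 (1360001 to 1380000) the values were 9.37% in testis2 and 85.9% in testis3, and on scaffold 23 (1860001 to 1880000) 5.95% and 76.8%. On scaffold 55 (1580001 to 1600000) testis2 had no peak and testis3 had 70.2%, and on scaffold 117 (540001 to 560000) the values were 10.8% and 80.5%. Testis1 cover in these 6 runs was 38.9% to 85.5%.

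Over whole scaffolds of at least 100 kb, 280 of 317 had more cover in testis2 and 30 more in testis3, with medians of 12.99% in testis2 and 5.29% in testis3. Testis3 had no peak on 39 scaffolds where testis2 had one, and testis2 had none on 7 where testis3 had one. The largest differences towards testis2 were on scaffold 327 (71.5% in testis2, 21.5% in testis3), scaffold 218 (61.3%, 19.4%), scaffold 81 (51.8%, 10.6%) and scaffold 110 (45.1%, 12.2%), all retained. Scaffold 81, 1102 kb long, took 1.29% and 1.26% of the reads in the testis2 libraries and 0.562% and 0.593% in the testis3 libraries. Towards testis3 they were on retained scaffold 241 (14.1% in testis2, 24.7% in testis3), eliminated scaffold 127 (1.95%, 8.78%) and retained scaffolds 230 (1.07%, 7.28%) and 254 (9.17%, 15.3%). On scaffold 241 the share of reads was 0.0926% and 0.0829% in testis2, below both 0.368% (rep1) and 0.162% (rep2) in testis3.

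Reads in the 20 kb windows were tested with edgeR's quasi-likelihood test over 8357 windows with at least 10 reads in at least 2 libraries. They were higher in testis2 in 4441 windows (53.1%) and lower in 2335 (27.9%) at an adjusted p under 0.05. Most of these calls only restate which list had the midpoint of a peak in the window. All reads of a peak were counted in the window of its midpoint. A window without such a midpoint has no reads of that list by construction, even where a peak reaches into it. Of the calls, 3322 had reads in testis2 only and 944 in testis3 only. Where both lists had reads, 1119 of 4091 windows (27.4%) were higher in testis2 and 1391 (34.0%) lower. Without testis2 rep1 or without testis2 rep2, the filter dropped windows with reads in testis2 only and kept those with reads in testis3 only. Over the 5035 windows left, the median log2 ratio of testis2 to testis3 was -0.57 and -0.54. It was 1.03 over the 8357 windows of the full fit.

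Where both lists had a peak, reads can be compared site by site. Overlapping peaks formed 4618 shared regions, of which 4511 were retained and 107 eliminated, and 3245 consisted of 1 testis2 and 1 testis3 peak. Median read densities were 20.01 and 19.4 in the testis2 libraries and 39.6 and 45.8 in the testis3 libraries. Scaled to reads in peaks, edgeR's quasi-likelihood test called 5 regions (0.108%) higher and 3898 (84.4%) lower in testis2 at an adjusted p under 0.05, with a median log2 ratio of -1.14. Density falls as more length is called, and testis2 spread its reads over 2.47 times the length, and the fit divides by called length. With no width in the offset, which compares reads per region, edgeR called 661 regions (14.3%) higher and 1572 (34%) lower, with a median log2 ratio of -0.43. With called length in the offset and 1 library left out, the median log2 ratio was -1.16 without testis2 rep1 and -1.12 without testis2 rep2. It was -1.21 without testis3 rep1 and -1.01 without testis3 rep2. The number of regions called was less stable than this median. Far fewer were called lower without a testis2 library than in the full fit, and more without a testis3 library. TMM scaling gave 3 higher (0.065%) and 1230 lower (26.6%). DESeq2, with its size factors, gave 105 higher (2.27%) and 161 lower (3.49%). Its size factors put the median log2 ratio at -0.03, so these DESeq2 counts are relative to about the median region.

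Relative to the median region, edgeR called few sites when both testis3 libraries were used, and DESeq2 called more (105 higher and 161 lower). Centred on the median, edgeR called 2 of the 4618 regions higher (0.0433%) and 19 lower (0.411%) in testis2. Among the 4549 regions with at least 200 bp in each list, centred on their median, edgeR called 0 higher (0%) and 0 lower (0%) in testis2, with 391 under an unadjusted p of 0.05 and a lowest adjusted p of 0.569. Against testis3 rep2 alone, 824 regions (18.1%) were higher and 707 (15.5%) lower in testis2 at an edgeR adjusted p under 0.05. Against testis3 rep1 alone, 100 (2.2%) were higher and 343 (7.54%) lower. In both of these fits the spread comes from the testis2 pair alone, which agreed more closely than the testis3 pair, so their p-values are too small if the single testis3 library varies as that pair did.

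The eliminated regions moved with the choice of testis3 library. Log2 ratios of testis2 to testis3 were first centred on the median region of those with at least 200 bp in each list. Against rep2 alone, the median centred ratio was 1.47 over 107 eliminated regions and -0.0156 over 4442 retained regions. Against rep1 alone, these medians were 0.253 and -0.00556. A positive centred ratio means above the median region, which need not be denser in testis2. Uncentred, the median log2 ratio to rep2 was 0.26 for eliminated and -1.21 for retained regions. For eliminated regions the uncentred median to rep1 was -0.75. Median densities of the eliminated regions were 45.4 and 46.03 in the testis2 libraries, 93.3 in testis3 rep1 and 39.2 in testis3 rep2. For retained regions they were 19.9 and 19.2 in testis2, 39.3 in testis3 rep1 and 45.9 in testis3 rep2. Eliminated regions were thus denser than retained ones in both testis2 libraries and in testis3 rep1, and less dense in testis3 rep2.

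**Figure D3:**
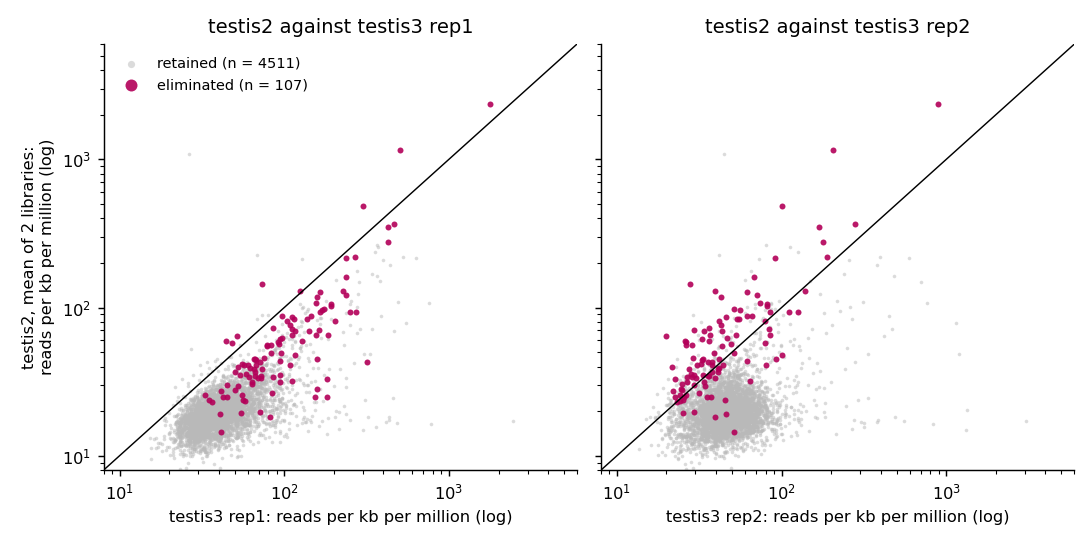
Each point is a shared region, with its testis2 read density (mean of 2 libraries, reads per kb for every 1000000 reads in peaks) on the vertical axis and its density in testis3 rep1 (left) or rep2 (right) on the horizontal axis, both log scales; the line marks equal values. Most retained regions lie below the line in both panels, and the 107 eliminated regions lie mostly below it for rep1 and mostly above it for rep2, with medians of 93.3 and 39.2 in the testis3 libraries.

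Scaled to reads in peaks, 3 of the 4549 regions of at least 200 bp (0.0659%) were higher in testis2 and 3836 (84.3%) lower, by edgeR at an adjusted p under 0.05. The regions higher in testis2 lay on scaffolds 35, 127 and 52. The first, in eliminated DNA on scaffold 35 (2019485 to 2021570), had densities of 1207 and 1095 in testis2 and 507 and 205 in testis3, a log2 ratio of 1.69 ± 0.45 (SE; edgeR adjusted p = 0.0185). The second, also eliminated, on scaffold 127 (200157 to 201701), had 125 and 163 in testis2 and 72.8 and 27.9 in testis3 (log2 ratio 1.52 ± 0.47, SE; edgeR adjusted p = 0.0277). The third, retained, on scaffold 52 (1114401 to 1118956), had 161 and 263 in testis2 and 128 and 72.5 in testis3 (log2 ratio 1.08 ± 0.39, SE; edgeR adjusted p = 0.0408). In all 3 both testis2 libraries lay above both testis3 libraries. Fitted with all regions, that on scaffold 35 had an edgeR adjusted p of 0.0586 without testis2 rep1 and 0.0644 without testis2 rep2, and that on scaffold 127 had 0.107 without testis2 rep2. The one on scaffold 52 had edgeR adjusted p of 0.0796 without testis2 rep1, 0.297 without testis2 rep2 and 0.0573 without testis3 rep2. With TMM the edgeR adjusted p was 0.0512 on scaffold 127 and 0.0569 on scaffold 52, and with no width in the offset it was 0.106 on scaffold 35. None of them passed after centring on the median region (edgeR adjusted p = 0.569 for each).

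Of the regions lower in testis2, those with the lowest p were retained. A region on scaffold 151 (37091 to 39117) had densities of 113 and 100.2 in testis2 and 752 and 768 in testis3, with 212 bp called in testis3. On scaffold 9 (64912 to 69165) testis2 had 28.1 and 27.9 and testis3 166 and 161. Scaffold 24 held a pair: from 142079 to 146151 testis2 had 40.5 and 36.9 and testis3 218 and 243, and from 379090 to 380817 testis2 had 48.4 and 37.2 and testis3 315 and 280. The log2 ratios of these 4 were -2.84, -2.54, -2.58 and -2.80 (edgeR adjusted p = 0.0118 for each), and centred on the median region they were -1.70, -1.41, -1.44 and -1.66 and did not pass (edgeR adjusted p = 0.569 for each). With no width in the offset, the region on scaffold 151 turned direction, to a log2 ratio of 0.42 (edgeR adjusted p = 0.164), and that on scaffold 9 had -0.89 (edgeR adjusted p = 0.0202).

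Without the 200 bp minimum, the lowest p-values went to slivers of peak. The region on scaffold 49 (1013838 to 1016099) was called higher in testis2 from a testis2 peak of 3 bp with 21 and 21 reads, and that on scaffold 202 (123688 to 125120) from one of 51 bp with 66 and 93 reads. The 4 with the lowest p among those called lower, on scaffolds 5, 8, 25 and 17, had testis3 peaks of 3, 8, 24 and 21 bp with 29 to 46 reads per library. Compared as reads per region, all 6 reversed direction. In all, 69 of the 4618 regions had under 200 bp in either list.

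In eliminated DNA the 2 lists had almost the same cover, in contrast to retained DNA. Over the 67 blocks marked eliminated, 12.9 Mb in length, peaks filled 4.14% in testis2 and 4.28% in testis3. Over retained DNA they filled 17.1% in testis2 and 6.81% in testis3. The ratio of eliminated to retained cover was thus 0.242 in testis2 and 0.629 in testis3. It was 0.459 in testis2 and 0.629 in testis3 with the lists cut to the same covered length, and 0.314 and 0.784 over scaffolds marked eliminated throughout. Eliminated peaks numbered 238 of 14781 (1.61%) in testis2 and 278 of 9197 (3.02%) in testis3. Of these, 113 in testis2 (47.5%) and 120 in testis3 (43.2%) were shared, against 34.3% and 69.7% of the retained peaks. The Jaccard index was 0.260 for eliminated and 0.227 for retained peaks. Median widths of eliminated peaks were 1659 bp in testis2 and 1578 bp in testis3, against 2100 and 1515 bp for retained peaks.

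The share of reads in eliminated peaks overlapped between the lists. Eliminated peaks took 3.68% of the reads in peaks in testis2 rep1 (95% Wilson interval 3.66 to 3.70) and 4.50% in rep2 (4.49 to 4.51). In testis3 they took 8.81% in rep1 (8.79 to 8.84) and 3.82% in rep2 (3.81 to 3.84). The testis2 values lay on both sides of testis3 rep2 and below testis3 rep1, and the intervals cover counting error only. With 2 libraries against 2, an exact permutation test cannot give a two-sided p below 0.333. The median density of eliminated peaks was 1.93 and 2.05 times that of retained peaks in the testis2 libraries, 2.46 times in testis3 rep1 and 0.837 times in testis3 rep2.

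**Figure D4:**
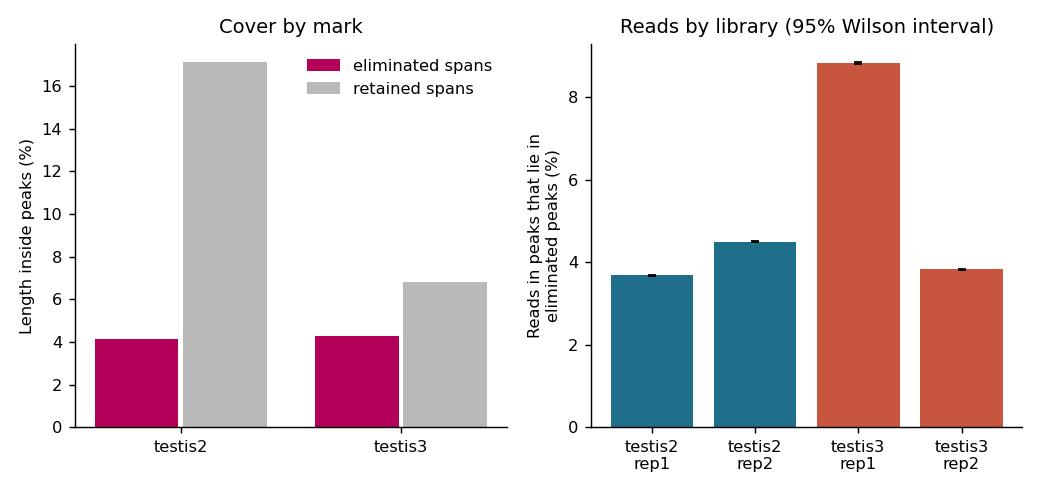
Left, percent of the length of eliminated and retained spans inside peaks of testis2 and testis3, 1 list each. Right, percent of each library's reads in peaks that fall in eliminated peaks, with 95% Wilson intervals; the value is 8.81% in testis3 rep1 and between 3.68% and 4.50% in the other 3 libraries.

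Most of the blocks with peaks were the same in both lists, with different amounts of cover. Each list had peaks in 37 of the 67 blocks, with 31 in common, 6 in testis2 only, 6 in testis3 only and 24 in neither. Testis2 had more cover in 22 blocks and testis3 in 21. Of the 5 longest blocks, the 1583 kb block on scaffold 35 (peaks from 89994 to 1634608) had 1.63% in testis2 and 1.43% in testis3, and scaffold 84 (1101 kb) had 4.65% and 4.06%. The 855 kb block on scaffold 54 (683853 to 1534231) had 1.63% in testis2 and 2.61% in testis3. The 843 kb block on scaffold 10 (2674262 to 3514706) had 4.73% and 2.80%, and scaffold 129 (519 kb) had 6.57% and 3.65%. The last 2 were also among the 3 blocks with the largest excess of covered length in testis2.

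The largest excess in testis2 was on scaffold 263, 152 kb marked eliminated throughout, with 23.1% cover in testis2 and 1.78% in testis3. Its share of the reads was 0.0663% and 0.0657% in the testis2 libraries and 0.0100% and 0.00991% in the testis3 libraries, with both testis2 libraries above both testis3 libraries. The largest excess in testis3 was on scaffold 127 (503 kb), with 1.95% in testis2 and 8.78% in testis3, and read shares of 0.166% and 0.147% in testis2 and 0.764% (rep1) and 0.334% (rep2) in testis3. Scaffold 148 (392 kb of eliminated DNA) had 3.20% and 8.78%, and scaffold 158 (375 kb) 6.76% and 11.03%. On scaffold 158 reads were 0.275% and 0.309% in testis2, and 0.978% in rep1 and 0.399% in rep2 of testis3.

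The disagreement of the testis3 libraries was ordered along the genome and differed by mark. In testis2 86 of 14781 peaks (0.582%) differed by more than 2-fold in density between rep1 and rep2, against 1396 of 9197 peaks (15.2%) in testis3, 583 of them higher in rep1 and 813 higher in rep2. Of the 278 eliminated testis3 peaks, 155 (55.8%) were more than 2-fold higher in rep1 and 0 in rep2. Most of the 1396 peaks were retained: 428 of those higher in rep1 and all 813 of those higher in rep2. The median log2 ratio of rep1 to rep2 was -0.00 for eliminated and 0.08 for retained peaks in testis2, and 1.08 and -0.23 in testis3. In the other lists, testis2 included, the median for eliminated peaks lay between -0.73 (5day) and 0.13 (46hr). Neighbouring peaks had like ratios in testis3, with r = 0.470 over 8868 neighbour pairs, against r = 0.157 over 14331 pairs in testis2. The next highest value was 0.414, in 5day. Such pairs share their libraries and scaffold.

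By scaffold of at least 100 kb, all 13 scaffolds marked eliminated throughout that had a testis3 peak took a larger share of reads in rep1 than in rep2, with a median log2 ratio of 1.29. The 14 such scaffolds with a testis2 peak had a median of -0.07, with 6 above 0. Retained scaffolds varied more in testis3 too, with an SD of 0.468 over 222 scaffolds against 0.149 over 252 in testis2. The 3 highest testis3 ratios were on scaffold 156 (log2 ratio 1.49, 36.6% of its length eliminated), scaffold 250 (1.48, all eliminated) and scaffold 126 (1.47, 79.8% eliminated). The lowest were on retained scaffolds 212 (-2.12, with 2188 and 10079 reads in 3 peaks), 278 (-1.33, with 266 and 710 reads) and 246 (-1.28, with 80 and 207 reads in 1 peak).

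Testis3 peaks with more reads in rep1 were more often peaks of testis1 and ovary1. With testis3 peaks split into 10 equal bins by the ratio of rep1 to rep2, 31.8% of the lowest bin overlapped a testis1 peak and 18.8% an ovary1 peak, and 87.3% and 80.4% of the highest bin did. For ovary2 the lowest and highest bins had 28.5% and 61.3%. For ovary3 they had 53.5% and 72.2%, with 49.6% to 58.6% in the bins between. Overlap with testis2 varied less, at 62.8% in the lowest and 72.4% in the highest bin, as did overlap with 0hr (57.1% and 56.8%) and L1 (48.2% and 42.3%). The highest bin held 200 of the 278 eliminated peaks, which were 21.7% of its peaks. In densities, testis3 rep1 correlated at r = 0.566 and 0.542 with the testis2 libraries over the 6340 testis3 peaks that overlap one of testis2, and rep2 at 0.240 and 0.236. With the testis1 libraries the values were 0.649 and 0.695 for rep1 and 0.264 and 0.345 for rep2, over 6049 peaks. These are descriptions over sites of single libraries; the part that read type, depth or input has in them was not tested.

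**Figure D5:**
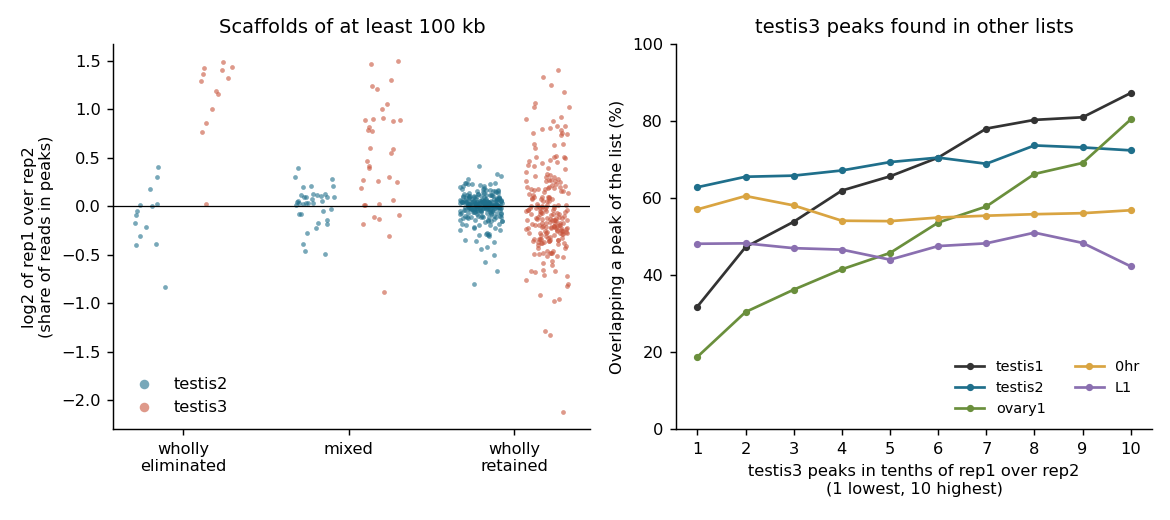
Left, log2 ratio of rep1 to rep2 (share of reads in peaks) for scaffolds of at least 100 kb in testis2 and testis3, by whether the scaffold is wholly eliminated, mixed or wholly retained. Right, percent of testis3 peaks that overlap a peak of 5 other lists, in 10 equal bins of the rep1 to rep2 ratio; overlap with testis1 is 31.8% in the lowest and 87.3% in the highest bin, while overlap with testis2 stays between 62.8% and 73.7%.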

How the data were processed

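The authors ran CENP-A ChIP-seq on 2 libraries per stage and deposited 1 peak list per stage with a coverage column for each library, per the file headers; the deposited values are whole-number counts of reads per peak that differ in total between libraries. The 4 testis2 and testis3 libraries of the 62 samples were compared; inputs, CENP-C and histone libraries were not analysed here. Per the submitters' processing notes the tools were Bowtie2 and MACS2; versions, settings, peak filter, use of the input and the coordinate base are not given in the sources used here. No genome sequence or gene annotation was used here, and positions are the authors'.

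Width is end minus start. Density is reads per kb of peak for every 1000000 reads in peaks. Shared peaks overlap by at least 1 bp. Eliminated blocks are runs of peaks of that mark in the 12 lists combined, and their borders were set midway to the next run. Windows of 20 kb had at least 5 kb, and the reads of a peak were counted in the window of its midpoint. Shared regions are runs of overlapping testis2 and testis3 peaks, and called length entered edgeR's offset. edgeR 4.0.16 and DESeq2 1.42.0 ran in R 4.3.3, with Benjamini-Hochberg adjustment over all regions or windows and only the 4 testis2 and testis3 libraries. The SE is the log2 ratio over the root of F. The fits were tested on simulated data with the same spread for all 4 libraries. That test does not cover the larger spread of the testis3 pair. Nothing says that the 2 libraries of a list came from separate animals, so p-values may measure technical spread.

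Members and rules were chosen with earlier results of these data known. Named sites were the 5 longest eliminated blocks and 3 with the largest difference each way, 6 window runs and 4 scaffolds each way, up to 4 shared regions each way by p, 4 densest list-only and 3 widest peaks per list, and the 3 highest and lowest testis3 scaffolds by library ratio. The 200 bp minimum, the centring of regions and the fits on a single testis3 library were added after the data were seen.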

Additional observations from a re-analysis of the deposited data

How the results depend on the processing

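Shared peaks were 34.5% of testis2 and 68.9% of testis3; they were 30.9% and 61.5% among peaks of at least the median density, 33.6% and 71.0% among peaks of at least 1000 bp, 54.3% and 36.5% with lists cut to the same covered length, 30.8% and 62.7% with an overlap of 50% of the shorter peak, and 11.8% and 18.9% with 50% of both. The Jaccard index was 0.203, 0.223 and 0.255 under the first 3 of these. The width difference, 574 bp in testis2 over testis3, was 935 bp among peaks of at least the median density, 1705 bp among shared and 585 bp among retained peaks. The cover ratio of eliminated to retained DNA was 0.338 in testis2 and 0.956 in testis3 among peaks of at least the median density, 0.459 in testis2 with cut lists, and 0.314 and 0.784 on scaffolds wholly eliminated. Of 14358 windows of 20 kb, cover was at least 40 points higher in testis2 in 297 and in testis3 in 570 with scaled lists. With cut lists the counts were 295 and 134. They were 3159 and 185 of 28413 windows at 10 kb, and 361 and 3 of 5931 windows at 50 kb. Scaffold 64 changed sign with cut lists, to -0.16 points.

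Shared regions higher and lower in testis2 numbered 3 and 1230 with TMM, 105 and 161 with DESeq2, 661 and 1572 with no width in the offset, 2 and 19 after centring, 3 (higher) with at least 200 bp, and 0 and 0 with both. Leaving out 1 library gave 2 to 76 higher and 179 to 4342 lower; centred and of at least 200 bp, the counts were 824 and 707 without testis3 rep1 and 100 and 343 without testis3 rep2. Windows of 50 kb gave 2214 and 1235, and without 1 library the 20 kb windows gave 695 to 4891 higher and 1731 to 1837 lower. With no width in the offset, log2 ratios turned to -4.69 on scaffold 49, -2.77 on scaffold 202, 2.49, 2.98, 2.53 and 2.58 on scaffolds 5, 8, 25 and 17, and 0.42 on scaffold 151. With the library number as a replicate block, 9 shared regions were higher and 3783 lower, and windows gave 4438 and 2287. Same-numbered libraries deviated with a correlation of 0.00795 over 4618 regions. Whether they share a read type or a preparation is not given. The cause of these shifts was not tested. Depth is known only within peaks.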
